A study of Mus musculus with 3 samples.

Results

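The genes described here encode histones: the linker histones of the H1 family, the core histones H2A, H2B, H3 and H4, and the replacement variants of H1, H2A and H3. They were taken from the array by name, as every non-control probe whose gene name began with Hist1h to Hist4h, H1f, H2af or H3f3. The rule gave 69 of 41174 probes, which stand for 46 of 27389 genes under current RefSeq symbols. There were 6 linker genes, 11 H2A, 8 H2B, 3 H3, 6 H4 and 12 replacement variants. The rule used no measured value, but it was set with earlier results of these data known.

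RNA came from MigA9, a mouse hematopoietic line transformed by Hoxa9, a homeobox transcription factor, and grown with GM-CSF-conditioned medium. The treated cultures received 2.5 µM DB818 for 6, 12 or 24 h, and the comparison in every case was with MigA9 cells that were not exposed. DB818 is a small molecule that lies in the minor groove of DNA and has been examined as a blocker of the contact between HOXA9 and its sites. Each time had 1 array, with the treated RNA in Cy5 and the untreated RNA in Cy3, and the dyes were not swapped. Treated and control cells all carry the Hoxa9 transformation and come from 1 cell line. Nothing in the labels says whether the 3 untreated RNAs were separate cultures.

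In mammals the replication-type histone genes lie in clusters, are copied into mRNA mainly in S phase, and give messages that end in a stem-loop in place of a poly(A) tail. Many of these copies encode the same or nearly the same protein, so that each cluster supplies the nucleosomes for newly made DNA. Replacement variants are mostly single genes with polyadenylated mRNA that are used through the cell cycle, and they exchange into chromatin at promoters, damage sites or in cells that no longer divide. Because copies of one histone are close in sequence, a probe named for one copy may also hybridise to others, and the sequences of the probes were not used here. A value given for a replication-type gene below is therefore the value of its probe and uncertain as to the copy.

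The promoters of the classes can be told apart by short elements, and those of the genes on which the results turn are shown first. The sequences are RefSeq promoters of GRCm38.p6, written 5′ to 3′ on the strand of the gene. Of the 46 genes, 39 had an entry. Capitals mark 5 strings, read on both strands: CCAAT, the core of the NF-Y site, TATAAA, the TATA box, ATTTGCAT, the octamer bound by POU factors, AAACACA, the element known from H1 promoters, and GGTCCG, the core of the H4 element that HINFP binds. No string contains another. They were kept from a longer series of strings after their matches had been seen, and a match is a stretch of letters, not a shown site.

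The linker promoters are given from 130 bases before to 10 bases after the start for H1f5, which had the highest ratio of any histone gene at 6 h on its 1 array, and for H1f2 and H1f4, which lay below 0 there. None of the 3 passed the test of the mean.
H1f5 (chr13:21780616-21780755, minus strand): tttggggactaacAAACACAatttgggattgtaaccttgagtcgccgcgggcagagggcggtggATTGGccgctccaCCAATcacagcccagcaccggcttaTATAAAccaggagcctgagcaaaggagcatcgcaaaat
H1f2 (chr13:23738677-23738816, plus strand): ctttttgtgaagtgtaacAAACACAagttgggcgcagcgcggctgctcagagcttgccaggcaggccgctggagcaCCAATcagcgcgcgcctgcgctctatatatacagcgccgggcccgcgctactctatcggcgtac
H1f4 (chr13:23622549-23622688, minus strand): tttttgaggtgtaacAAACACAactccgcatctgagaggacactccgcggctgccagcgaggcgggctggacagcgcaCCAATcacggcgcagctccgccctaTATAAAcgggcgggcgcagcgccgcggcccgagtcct
All 3 carry AAACACA between 112 and 117 bases before the start, followed by CCAAT, on the same strand, at 52 to 54 bases. Over windows from 250 bases before to 50 after the start, AAACACA was found in 5 of 6 linker genes and in 7.18% of all 32851 promoters, and CCAAT in 6 of 6 against 37.4%.

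The H4 promoters are given from 90 bases before the start, with 3 genes that rose with DB818 and H4c9, which did not pass the test.
H4f16 (chr6:136804422-136804521, minus strand): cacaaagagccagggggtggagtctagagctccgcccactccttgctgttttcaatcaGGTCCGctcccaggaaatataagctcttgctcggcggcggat
H4c4 (chr13:23581478-23581577, plus strand): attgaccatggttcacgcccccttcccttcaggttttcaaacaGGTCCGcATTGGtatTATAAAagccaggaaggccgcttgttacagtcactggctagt
H4c6 (chr13:23551659-23551758, minus strand): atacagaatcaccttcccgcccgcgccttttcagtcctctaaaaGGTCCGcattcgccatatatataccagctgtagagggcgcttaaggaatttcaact
H4c9 (chr13:22041353-22041452, minus strand): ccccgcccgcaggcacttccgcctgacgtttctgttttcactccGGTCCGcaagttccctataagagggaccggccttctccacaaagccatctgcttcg
GGTCCG lies 46 or 47 bases before the start in H4c4, H4c6 and H4c9 and 32 bases before it in H4f16. It was present in 4 of 5 H4 windows, in 4 of 10 variant windows and in 8.25% of all promoters, and in none of the linker, H2A, H2B or H3 windows. H4c9 thus carries these letters without having passed the test, and H4c1, whose window lacks them, rose.

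The H2A promoters are the gene with the highest and the gene with the lowest mean ratio of that class, from 150 bases before the start.
H2ac4 (chr13:23750938-23751097, plus strand): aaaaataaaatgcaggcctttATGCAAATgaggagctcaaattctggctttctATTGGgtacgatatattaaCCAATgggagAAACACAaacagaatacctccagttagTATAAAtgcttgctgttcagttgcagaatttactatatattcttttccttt
H2ac15 (chr13:21753903-21754062, minus strand): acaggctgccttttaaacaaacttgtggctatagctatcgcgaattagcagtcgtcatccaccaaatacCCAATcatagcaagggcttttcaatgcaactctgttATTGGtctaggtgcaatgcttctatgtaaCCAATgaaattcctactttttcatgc
H2ac4 holds the octamer 129 bases before its start, on the opposite strand, together with both orientations of CCAAT. The TATA box string lies at 41 bases and the H1 element string at 68. H2ac15 holds 3 CCAAT strings in the printed stretch and no octamer in its window. Its TATA box string begins at base 22 after the start, past the printed stretch. The octamer occurred in 6 of 11 H2A and 4 of 5 H2B windows and in 1.74% of all promoters.

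Values below are log2 ratios of treated over untreated cells, so that a value above 0 means more signal with DB818. A gene was measured on an array when the signal of a probe of it exceeded background clearly in Cy5 and in Cy3, below saturation. On the 6, 12 and 24 h arrays 46, 45 and 46 of the 69 probes met this, and 36, 35 and 35 of the 46 genes had a value. On all arrays 34 were measured. Repeated spots of 1 probe differed by 0.04, 0.03 and 0.05 (pooled SD on the log2 scale, 22 probes) at 6, 12 and 24 h, which covers spotting and scanning only. All 9 myeloid and progenitor markers examined were above background in the untreated channel of every array, and no T cell, B cell, erythroid, epithelial or fibroblast marker was so on every array. In a bulk sample, fewer cells in S phase and less histone mRNA per cell cannot be told apart. No time was repeated, and with 3 arrays the precision is limited by their number.

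Across the 3 times H4 was the histone class with most genes higher in treated cells, H2B followed, and H2A was split between 1 high and 3 low genes. The mean ratio over the times was tested with limma on the 10955 genes measured on all arrays, with Benjamini-Hochberg adjustment at 0.05. Of 34 histone genes 13 were higher and 4 lower, and 17 did not pass. Among all genes tested, 20.1% were higher and 7.86% lower, so the count of lower histone genes lies near the background. By class, 5 of 6 H4, 4 of 6 H2B, 3 of 8 replacement variants and 1 of 6 H2A genes were higher. The lower genes were 3 H2A genes and 1 variant. None of 5 linker genes and none of 3 H3 genes passed in limma, and 0 of them had an unadjusted p under 0.05. The median of the mean ratios was 0.25 for H4, 0.12 for H2B, 0.07 for variants, -0.00 for linker histones, -0.01 for H3 and -0.05 for H2A, beside 0.03 for all genes. When median centring replaced loess, the 3 low H2A genes and the low variant turned positive, while no H4, H2B or variant gene that was higher turned sign. This scaling raised bright genes, H3f3a from 0.22 to 0.77, so the sign kept by bright higher genes says little about them. The dyes were not swapped, so that a bias of a probe toward Cy5 and an effect of DB818 that is equal at all times cannot be told apart.

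**Figure D1:**
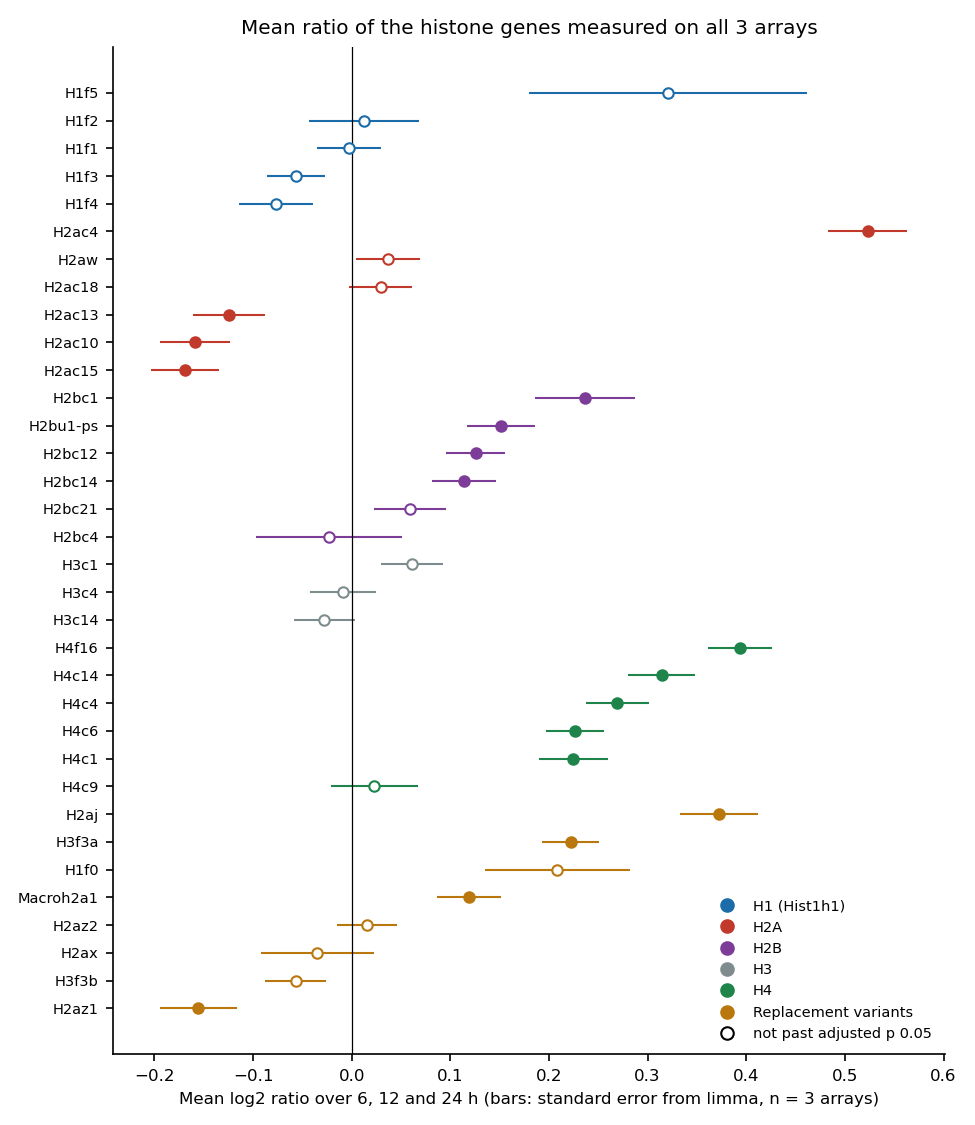
Mean log2 ratio of treated over untreated cells over 6, 12 and 24 h (horizontal axis) for the 34 histone genes measured on all 3 arrays, 1 line per gene, coloured by class, with limma's standard error as bars and filled points for genes past adjusted p 0.05. Of the 6 H4 genes 5 lie between 0.22 and 0.39, and H2ac4 is highest at 0.52; the low H2A genes and H2az1 (-0.12 to -0.17) turned positive with median centring in place of loess.

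At single times few histone genes moved far, and none was lower by the size used here. At 6 h, 3 of 36 measured histone genes were higher by at least 0.322 on the log2 scale and 0 were lower by as much, where 1.79% of all measured genes were higher and 0.725% lower. These were H1f5, H2ac4 and H4f16. At 12 h, 4 of 35 were higher, against 1.39% of all genes, and 0 were lower, against 0.723%. The 4 were H2ac4, H4f16, H2aj and H1f0. At 24 h, 6 of 35 were higher, against 2.72%, and 0 were lower, against 1.46%. H2bc1 and H4c14 joined the 4 genes of 12 h. The shares of histone genes past this size were 8.33, 11.4 and 17.1% at 6, 12 and 24 h. With 1 array per time there is no test of these counts.

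**Figure D2:**
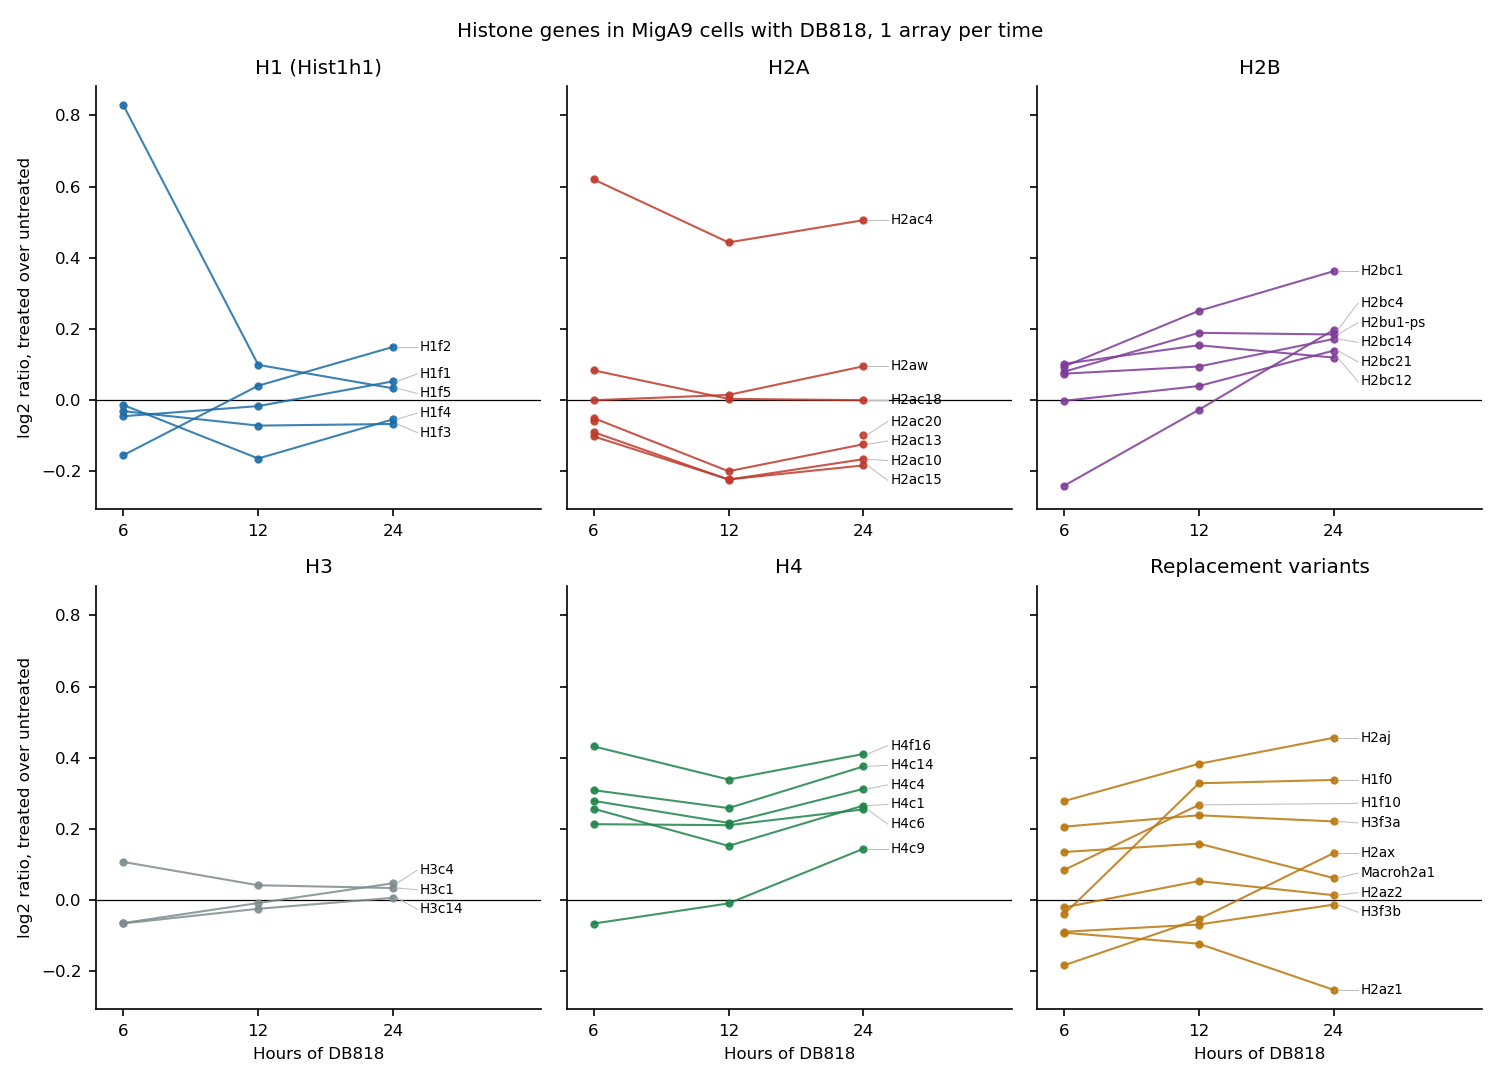
Log2 ratio of treated over untreated cells (vertical axis) at 6, 12 and 24 h of DB818 for each histone gene measured, 1 panel per class and 1 array per time, with no error bars because no time was repeated. H1f5 starts at 0.83 and ends at 0.03, 5 of 6 H4 genes stay between 0.15 and 0.43, and 3 H2A genes lie below 0 at every time, a side they leave with median centring in place of loess.

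Linker histones bind the nucleosome where DNA enters and leaves and compact the fibre. H1f5 (Hist1h1b in the files), the gene for H1.5, had the largest ratio of any histone gene at 6 h, 0.83, and then 0.10 at 12 h and 0.03 at 24 h. Its treated signal was 9.18, 8.79 and 8.46 on the 6, 12 and 24 h arrays, and its untreated signal 8.35, 8.69 and 8.43, as normalised log2 signal of 1 probe. The treated signal was thus highest on the 6 h array and the untreated signal lowest there, and both channels lay within 0.10 of each other later. Because 1 array carries the difference, the mean was 0.32 ± 0.14 (SE, n = 3), adjusted p = 0.13 in limma. Without the 6 h array the mean was 0.07.

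H1f2 (Hist1h1c), the gene for H1.2, stood at -0.15 at 6 h, 0.04 at 12 h and 0.15 at 24 h. These values pass from below to above 0, and their mean was 0.01 ± 0.06 (SE, n = 3; limma adjusted p = 0.88). H1f4 (Hist1h1e), the gene for H1.4, was at -0.01, -0.16 and -0.05, with a mean of -0.08 ± 0.04 (adjusted p = 0.16 in limma). H1f3 (Hist1h1d) was at -0.03, -0.07 and -0.07, and H1f1 (Hist1h1a) at -0.04, -0.02 and 0.05. H1f4 and H1f3 were below 0 at all times, by amounts that did not pass the test, and H1f4 turned to 0.21 with median centring. H1f6, the testis linker histone, was not well above background in either channel.

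H2A forms a dimer with H2B on the outer face of the nucleosome. H2ac4 (Hist1h2ab) was at 0.62, 0.44 and 0.51 at 6, 12 and 24 h. Its treated signal was 9.22, 9.28 and 9.13 and its untreated signal 8.60, 8.83 and 8.62, so the channels did not overlap. The mean ratio of 0.52 ± 0.04 (SE, n = 3) was the highest of all histone genes measured on all arrays, with an adjusted p of 0.0034 in limma. H2ac15 (Hist1h2ak) was at -0.10, -0.22 and -0.18, H2ac10 (Hist1h2af) at -0.09, -0.22 and -0.17, and H2ac13 (Hist1h2ai) at -0.05, -0.20 and -0.12. All 3 were lowest at 12 h. Their means were -0.17 ± 0.03, -0.16 ± 0.04 and -0.12 ± 0.04 (SE, n = 3), with limma's adjusted p at 0.015, 0.020 and 0.046. Whether the probes of these 3 genes read separate genes or a shared pool of H2A mRNA was not tested.

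The lower H2A calls depended on the processing. Of the 3 genes, 0 passed with the scanner's own processed signals (-0.16, -0.13 and -0.13 for H2ac15, H2ac10 and H2ac13), 0 without the 12 h array and 1 without the 24 h array, and all turned positive with median centring (0.28, 0.35 and 0.25). H2aw (Hist3h2a; mean 0.04) and H2ac18 (Hist2h2aa1; mean 0.03) did not pass. H2ac20 (Hist2h2ac) was at -0.06 at 6 h and -0.10 at 24 h and saturated at 12 h in the treated channel. H2ac1, the testis H2A, and a further probe of H2ac10 were saturated in the treated channel on all arrays, so neither gave a ratio. Whether the signal of the H2ac1 probe came from that gene or from other H2A copies was not tested. With saturated probes kept, the mean of H2ac10 was -0.38, a value that the capped treated signal pulls down. H2ac6, H2ac8 and H2ac19 were not measured.

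Of the 6 measured H2B genes 4 rose and 2 did not pass. H2bc1 (Hist1h2ba), which encodes the testis form of H2B, was at 0.09, 0.25 and 0.36 at 6, 12 and 24 h, with a mean of 0.24 ± 0.05 (SE, n = 3; limma adjusted p = 0.018). H2bu1-ps (Hist3h2bb), a pseudogene under its current name, was at 0.08, 0.19 and 0.18 (mean 0.15 ± 0.03). H2bc12 (Hist1h2bk) was at 0.10, 0.15 and 0.12 (mean 0.13 ± 0.03), and H2bc14 (Hist1h2bm) at 0.07, 0.09 and 0.17 (mean 0.11 ± 0.03). All 4 were above 0 on every array, and limma's adjusted p of the last 3 was 0.021, 0.023 and 0.042. H2bc21 (Hist2h2be), a polyadenylated H2B gene, was at -0.00, 0.04 and 0.14 and did not pass (adjusted p = 0.25 in limma). H2bc4 (Hist1h2bc) went from -0.24 at 6 h through -0.03 to 0.20 at 24 h. H2bc6 and H2bu2 were not measured. With the scanner's processed signals or without the 12 h array 0 of the 4 H2B genes passed, and without the 24 h array 1 did, while the means of the 4 stayed above 0 in all 14 alternatives.

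H3 pairs with H4 in the tetramer at the centre of the nucleosome, and its 3 measured replication-type genes lay close to 0. H3c1 (Hist1h3a) was at 0.11, 0.04 and 0.03, H3c4 (Hist1h3d) at -0.06, -0.01 and 0.05, and H3c14 (Hist2h3c1) at -0.07, -0.02 and 0.01. None lay more than 0.11 from 0, and limma's adjusted p was 0.18, 0.86 and 0.52. H3c1 was dim, with a mean signal of 6.23 on the log2 scale, where the processing draws ratios toward 0. These small values depend on the scaling, since median centring put them at -0.70, 0.42 and 0.47.

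The H4 genes all encode the same protein, and 5 of the 6 rose. H4f16 (Hist4h4), which lies outside the large clusters, was at 0.43, 0.34 and 0.41 at 6, 12 and 24 h. Its treated signal was 9.19, 9.19 and 9.09 and its untreated signal 8.76, 8.85 and 8.68. Every treated value thus lay above every untreated one, and the mean was 0.39 ± 0.03 (SE, n = 3; limma adjusted p = 0.0034). A second probe was at background in both channels on all arrays, and with no filter on dim probes the mean was 0.18 and passed. H4c14 (Hist2h4) was at 0.31, 0.26 and 0.38, with a mean of 0.31 ± 0.03 (adjusted p = 0.0042 in limma). H4c4 (Hist1h4d) was at 0.28, 0.22 and 0.31, H4c6 (Hist1h4f) at 0.21, 0.21 and 0.25, and H4c1 (Hist1h4a) at 0.26, 0.15 and 0.27. Their means were 0.27 ± 0.03, 0.23 ± 0.03 and 0.22 ± 0.03 (SE, n = 3), with adjusted p of 0.0047, 0.0052 and 0.0073 in limma.

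H4c9 (Hist1h4i) differed from these, with -0.07, -0.01 and 0.14, a mean of 0.02 ± 0.04 and an adjusted p of 0.72 in limma. The count of higher H4 genes was 4 with the scanner's processed signals, where H4c1 missed the threshold at 0.21 (adjusted p = 0.051 in limma), 6 with median centring, and 5 in every other alternative, each array left out in turn included. The 2 probes measured for H4c4 had means of 0.25 and 0.29. Whether the 5 probes read separate genes or a shared pool of H4 mRNA was not tested.

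Replacement variants ranged from H2aj to H2az1. H2aj (H2afj), the gene for H2A.J, a variant known to build up in senescent cells, was at 0.28, 0.38 and 0.46 at 6, 12 and 24 h. Its treated signal was 8.03, 8.11 and 8.26 and its untreated signal 7.75, 7.73 and 7.80, so that the treated signal was higher on each array. The mean was 0.37 ± 0.04 (SE, n = 3; limma adjusted p = 0.0042). That value rests on 1 probe, since the other was saturated in the treated channel on all arrays. The 2 probes had mean signals of 7.94 and 15.38 on the log2 scale, and whether both read H2aj was not tested. With saturated probes kept the mean was 0.01 and did not pass, a value that the capped treated signal pulls down.

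H3.3 is encoded by both H3f3a and H3f3b. H3f3a was at 0.21, 0.24 and 0.22, with a mean of 0.22 ± 0.03 (SE, n = 3; limma adjusted p = 0.0052), and its 3 probes lay between 0.20 and 0.25. H3f3b was at -0.09, -0.07 and -0.01, with a mean of -0.06 ± 0.03 (adjusted p = 0.21 in limma), and its 3 probes lay between -0.07 and -0.03. No probe of H3f3b lay above 0 on average and none of H3f3a below it, although median centring put H3f3b at 0.10 and H3f3a at 0.77. The difference between the genes was not tested. Without the 12 h array H3f3a stood at 0.21 and missed the threshold (adjusted p = 0.053 in limma).

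H2A.Z is likewise encoded by H2az1 and H2az2, and it marks nucleosomes at promoters. H2az1 (H2afz) was at -0.09, -0.12 and -0.25, with treated signals of 13.91, 13.87 and 13.75 and an untreated signal that was at 13.99 on the 12 h array and no lower elsewhere. The untreated channel thus stayed above every treated value, which was lowest at 24 h, and the mean was -0.16 ± 0.04 (SE, n = 3; limma adjusted p = 0.028). H2az2 (H2afv) was at -0.02, 0.05 and 0.01 and did not pass (adjusted p = 0.73 in limma). The H2az1 call was lost without the 12 h array (-0.17) or the 24 h array (-0.11) and with no filter on dim probes (-0.06). It was also lost with the scanner's processed signals (-0.11), plain background subtraction (-0.13) and a normexp offset of 16 (-0.11). With median centring the mean turned to 0.41.

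H1f0, the gene for H1.0, a linker variant known from cells that leave the cycle and differentiate, was at -0.04 at 6 h and 0.33 and 0.34 at 12 and 24 h. On its brightest probe the treated signal was 9.29, 9.89 and 10.06 and the untreated signal 9.33, 9.57 and 9.49, so that the channels met at 6 h and parted later. A dimmer probe was measured at 24 h only, at 0.10, and the brightest probe alone was at 0.57 there. The mean was 0.21 ± 0.07 (SE, n = 3) with an adjusted p of 0.074 in limma. Without the 6 h array the mean was 0.33 (adjusted p = 0.0014 in limma). That p rests on the closeness of the values at 12 and 24 h, which come from different sets of probes. The brightest probe alone was at 0.33 at 12 h and 0.57 at 24 h, so no conclusion is drawn from that p. With only probes measured on all arrays the mean was 0.29 (adjusted p = 0.073 in limma). H1f10 (H1fx), another linker variant, was at 0.08 at 6 h and 0.27 at 12 h, and that probe was an outlier at 24 h. Its other probe was above background in the untreated channel alone at 12 and 24 h, which gives a signal at least 1.14-fold and 1.15-fold lower in treated cells, the opposite direction. Macroh2a1 (H2afy), a variant with a large globular domain, was at 0.14, 0.16 and 0.06, with a mean of 0.12 ± 0.03 (adjusted p = 0.037 in limma), but its 3 probes spanned 0.01 to 0.24. The adjusted p of Macroh2a1 stayed below the threshold of the main test in only 8 of 14 alternatives. Those that lost the call included the fits without the 6 h array (0.11) and without the 12 h array (0.10).

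H2ax (H2afx), whose protein is phosphorylated around DNA breaks, went from -0.18 at 6 h through -0.05 to 0.13 at 24 h, and its mean of -0.04 ± 0.06 did not pass (adjusted p = 0.67 in limma). H1f8, the oocyte linker histone, was above background in the treated channel alone, at 24 h. Macroh2a2 and Macroh2a3 were not measured. The bounds that probes seen in 1 channel allowed were at most 1.15-fold.

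**Figure D3:**
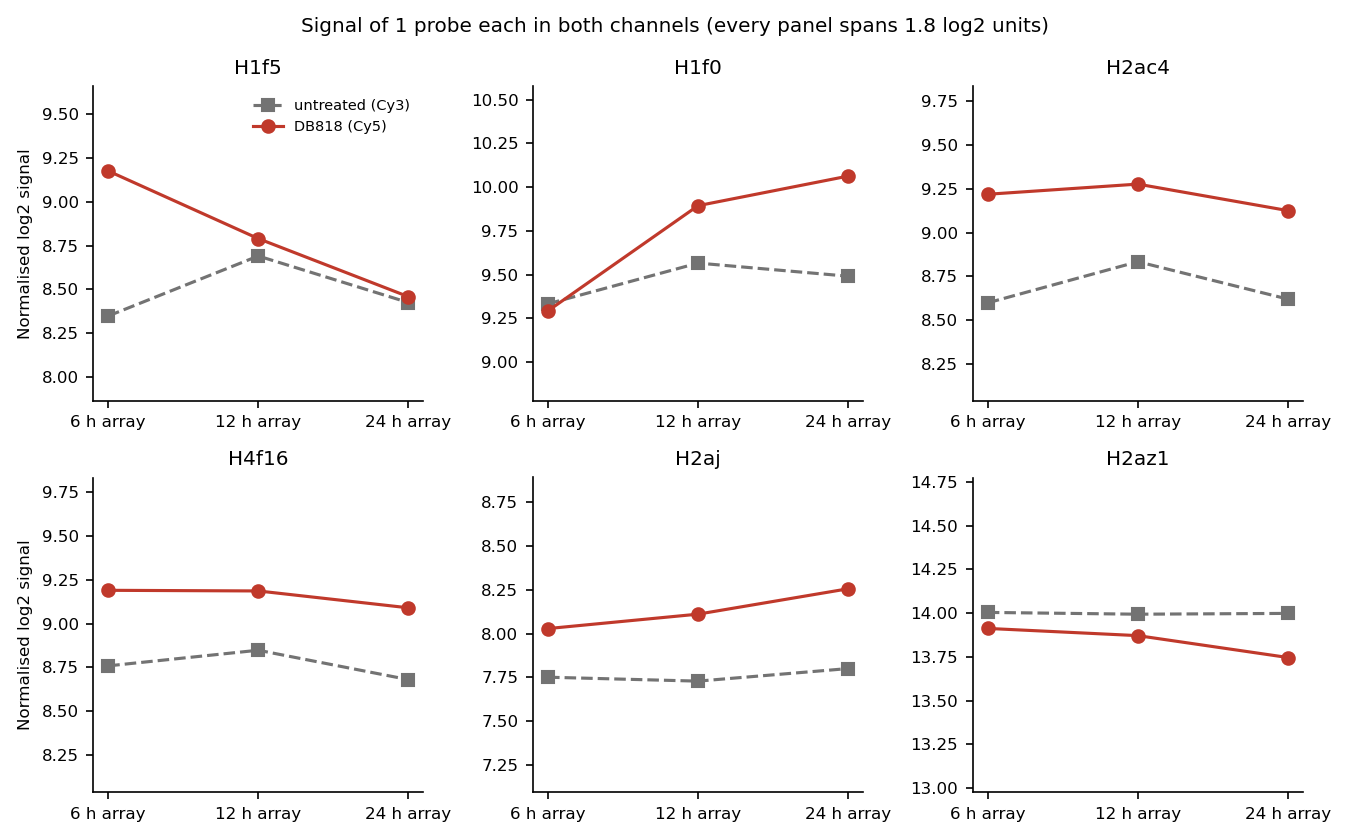
Normalised log2 signal (vertical axis) of 1 probe each of H1f5, H1f0, H2ac4, H4f16, H2aj and H2az1 on the 6, 12 and 24 h arrays, with the untreated channel (Cy3) as grey squares and the DB818 channel (Cy5) as red circles; every panel spans the same range and no time was repeated. The channels of H2ac4 and H4f16 run apart throughout, those of H1f5 meet by 24 h and those of H1f0 part after 6 h; H2az1 lies lower in treated cells, which median centring turned.

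The change of the ratio between 6 and 24 h cancels a dye bias that is constant. Of 35 genes measured at both times, 2 had a ratio higher by at least 0.322 at 24 h and 1 had a lower one, where 1.6% of all genes were higher and 1.04% lower by this much. The difference, 24 h minus 6 h, was 0.44 for H2bc4, 0.38 for H1f0 and -0.80 for H1f5. For H1f0 a second probe entered at 24 h, so a constant dye bias does not cancel in that value, and the probe measured at both times changed by 0.61. All 6 H2B genes had a higher ratio at 24 h than at 6 h, with a median change of 0.12, while 6 of 7 H2A genes had a lower one, with a median of -0.08. For H2bc12 the change was only 0.02, and its 2 probes changed by -0.07 and 0.10. The medians were 0.07 for H3, 0.04 for H4, 0.06 for variants and -0.04 for linker histones, beside 0.00 for all genes. H4 thus changed little between the first and last time. With 1 array at each time these changes have no test.

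The place of the histone genes among all genes is shown by brightness, because the ratio on an array can drift with it. The 3 lower H2A genes and H2az1 were bright, with mean signals from 11.34 to 13.91 on the log2 scale. H4c6 and H3f3a were bright too, at 12.44 and 13.58, and were higher. H2az2 (13.91), H3c14 (12.98), H2ax (12.23) and H3c4 (12.08) were also bright and did not pass. Their means were 0.02, -0.03, -0.04 and -0.01. Whether brightness bears on these ratios was not tested.

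**Figure D4:**
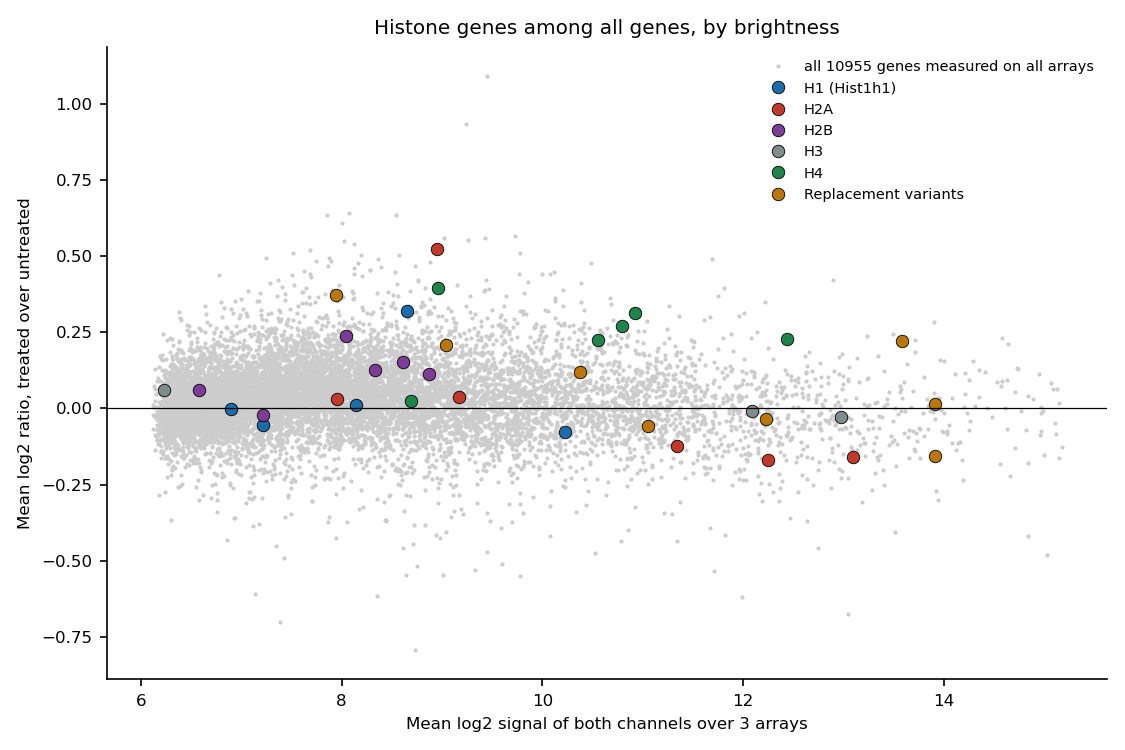
Mean log2 ratio of treated over untreated cells (vertical axis) against the mean log2 signal of both channels over 3 arrays (horizontal axis) for the 10955 genes measured on all arrays (grey) and the histone genes (coloured by class). H4 genes lie above the grey band's centre from a signal of 8.96 to 12.44, apart from H4c9, while the bright H2A genes lie below 0, where median centring would put them above it.

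The scaling turned signs, and leaving out an array ended calls. With each array only centred on its median, ratios ran from a median of -0.79, -0.76 and -0.80 among the dimmest measured genes at 6, 12 and 24 h to 0.43, 0.36 and 0.42 among the brightest, in 10 bins of equal size, so that bright histone genes were raised and dim ones lowered. Under it 26 histone genes were higher and 4 lower. With the scanner's processed signals 7 were higher and 0 lower. Of the 17 genes that had passed, 10 lost the call in that setting and 10 without the 12 h array, 6 without the 24 h array and 1 without the 6 h array. Without the 12 h array 7 histone genes were higher and 0 lower. H2ac4, H4f16, H4c14, H4c4 and H4c6 passed in all 14 alternatives.

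**Figure D5:**
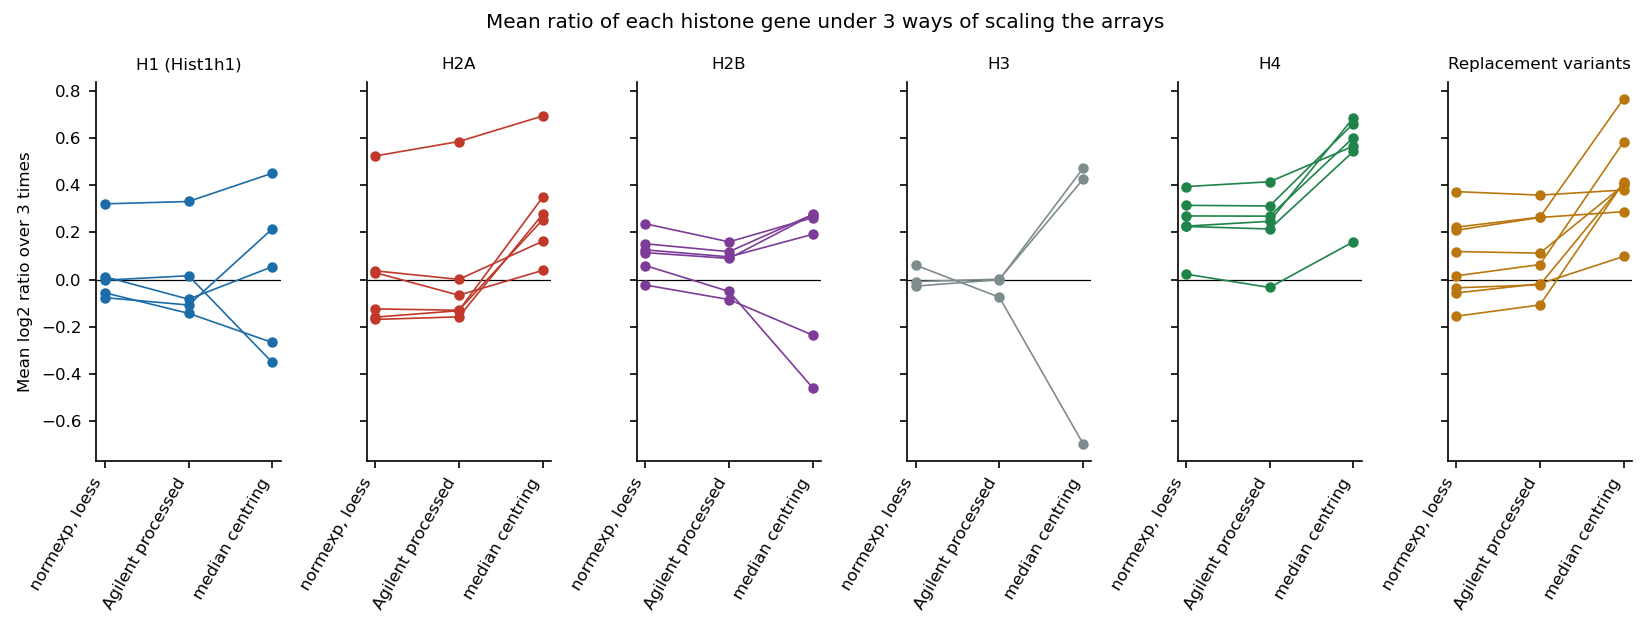
Mean log2 ratio of treated over untreated cells over 3 times (vertical axis) of each histone gene under normexp with loess, the scanner's processed signals and median centring without loess (horizontal axis), 1 panel per class and 1 line per gene. H2ac4 and 5 of 6 H4 genes lie above 0 under each scaling, and the 3 low H2A genes, H2az1 and H3c14 cross 0 with median centring. H3c1 and H3c4 cross it already with the processed signals, at -0.07 and 0.0015.

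Genes that act on histones were read from 3 lists. For the supply of histone mRNA, 4 of 16 tested genes were higher, 2 lower and 10 did not pass, with a median of 0.07. Among all genes tested 20.1% were higher and 7.86% lower, near the shares in this list. Slbp, which binds the stem-loop of histone mRNA, was at 0.23, 0.19 and 0.21 (mean 0.21 ± 0.03, limma adjusted p = 0.0059). Npat, the coactivator of histone genes at the entry to S phase, had a mean of 0.18 ± 0.04, and Hinfp, which binds the H4 element, one of 0.20 ± 0.03. Cpsf2, a part of the machinery that cuts the 3′ end, had a mean of 0.22 ± 0.03. All 4 were above 0 on every array. Upf1, a helicase used in the decay of histone mRNA, fell, with a mean of -0.21 ± 0.03, and so did Srrt, a partner of the cap-binding complex, with -0.13 ± 0.04. Without the 12 h array 1 gene of this list was higher and 0 were lower, without the 24 h array 4 and 1, and with median centring 8 and 3. With no filter on dim probes Hinfp had a mean of 0.10.

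Of 23 histone chaperones tested 4 were higher, 0 lower and 19 did not pass in limma, with a median of 0.02, and 1 lower gene had an unadjusted p under 0.05. Without the 12 h array 2 were higher, with processed signals 2, and with median centring 15 were higher and 3 lower. Without the 6 h array 1 was lower. Rbbp4, a subunit of CAF-1, had the largest mean, 0.26 ± 0.04. Cabin1, which works with HIRA in the deposition of H3.3, had 0.23 ± 0.03, Anp32e, which removes H2A.Z, 0.19 ± 0.03, and Tonsl, a reader of newly made H4, 0.13 ± 0.03. Chaf1a (0.01), Asf1b (0.02) and Hira (0.04) did not pass. Of 24 genes of S phase and replication 8 were higher, 2 lower and 14 did not pass, with a median of 0.06. Without the 12 h array 0 were higher and 0 lower in limma, without the 24 h array 8 and 1, with processed signals 2 and 0, and with median centring 18 and 3. Pola1 (0.25 ± 0.04) and E2f1 (0.25 ± 0.04) were highest, followed by Slbp, which stands in both lists, and Pcna (0.18 ± 0.03). Mcm6 (-0.24 ± 0.04) and Mcm7 (-0.15 ± 0.04), subunits of the replicative helicase, were lower, although median centring turned them to 0.35 and 0.28. The shares in the lists stand beside 20.1% higher and 7.86% lower among all genes tested, and the supply and chaperone counts lie near these. Of all genes 4154 were higher and 4475 lower with median centring, and 403 and 143 without the 12 h array. With processed signals 590 were higher and 640 lower. Whether S phase moved with the histone genes was not tested.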

How the data were processed

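The authors scanned the 3 two-colour arrays with Agilent Feature Extraction 9.1.3.1, per the submitters' processing notes. Per the file headers, the deposited scanner files give a mean and a background intensity for Cy5 and for Cy3. A deposited value table gives the scanner's log10 ratio of treated over untreated. It differed from the scanner files by 0 at most and was not used further. No source used here names the primer of the labelling step, which bears on mRNA without a poly(A) tail.

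In R 4.3.3 with limma 3.58.1, normexp with an offset of 50 was followed by a loess fit on every array, and arrays were not scaled to each other. Control spots and outlier spots were left out. Unsaturated probes that the scanner called well above background in Cy5 and Cy3 were averaged per gene, under RefSeq symbols (GRCm38.p6) matched for the members by accession (53 probes), synonym (15) or symbol (1). The offset draws dim ratios toward 0. Channel signals were taken after quantile normalisation. Median signals over all probes were 78.2 to 79.3 in Cy3 and 71.8 to 72.1 in Cy5, over backgrounds of 41 to 42 and 54.

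Limma compared the mean over the times with 0 (intercept, eBayes, 2 residual and 4.82 prior degrees of freedom), adjusted over 10955 genes. Change with time counts as error in this fit, and p-values measure only the spread between these arrays. On simulated data all of 67, 67 and 66 genes planted at 1.25-fold, 1.5-fold and 2-fold were recovered, with 14 false calls among 214. The simulation drew independent normal noise at limma's fitted variances, with no dye bias and no error shared between arrays. Errors of those kinds were thus not examined by it. Single times and their difference were described without a test, with 1.25-fold (0.322 on the log2 scale) as the size counted. Promoter searches ran in Python 3.11.15 with pandas 2.3.3 and numpy 2.4.6, and figures were drawn by matplotlib 3.10.9.

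The members and lists were chosen with earlier results of these data known. Named genes were all linker and variant members measured, up to 6 of each core class by size of the mean, and up to 4 of each list in each direction. Chaf1a, Asf1b and Hira, the printed promoters, the 5 strings, the probes drawn by channel and the neighbours were chosen after values were seen. Median centring used probes well above background, a set chosen after a first version over all probes had been seen. Zfp100 of the supply list was matched by synonym to Zbtb17, which may not be the gene meant. Zbtb17 stands among the 16 tested genes of that list and did not pass. Alternatives covered background correction, scaling, filters, the choice of probe, thresholds, array weights and leaving out each array.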

Additional observations from a re-analysis of the deposited data

Results flagged for a closer look

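For 3 histone genes the ratio of treated over untreated cells lay on opposite sides of 0 at 6 and 24 h, each time by more than 2 SD of repeated spots. H2bc4 moved from -0.24 to 0.20, a change of 0.44 on the log2 scale. H2ax moved from -0.18 to 0.13, a change of 0.32. H1f2 moved from -0.15 to 0.15, a change of 0.30. All 3 had a value between these at 12 h. The differences were not tested, since each time had 1 array, and the limit of 2 SD was set after the ratios had been seen.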

How the results depend on the processing

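No paired analysis was possible because no further pairing exists beyond the arrays: treated and untreated RNA of a time shared 1 array, the ratio within it was the value tested, and no time was repeated. Histone genes higher on average (13) were 7 with the scanner's processed signals, 26 with median centring, 8 at a false discovery rate of 0.01 and 7 to 13 with 1 array left out (7 without the 12 h array). Lower ones (4) were 0 with processed signals, 2 with plain subtraction, 1 with offset 16, 2 with no filter on dim probes, 7 with array weights (4.39 for the 12 h array, 0.425 and 0.536 for the 6 and 24 h arrays), 0 at the rate of 0.01 and 0 to 4 with 1 array left out (0 without the 12 h and 1 without the 24 h array). Lower H2A genes (3) were 0 with processed signals, 1 with offset 16, 0 with median centring, 0 at the rate of 0.01 and 0 to 3 with 1 array left out (0 without the 12 h and 1 without the 24 h array). Higher H4 genes (5) were 4 to 6 in all 14 alternatives. Genes higher by at least 0.322 on the log2 scale were 18, 16 and 18 at 6, 12 and 24 h with median centring, and 2 at 12 h with no filter. Lower ones, 0 before, were 4, 2 and 3 with median centring, 1, 2 and 2 with saturated probes kept, and 1 at 6 h with processed signals or offset 16. Saturation capped the treated signal alone, which pulls the ratios of saturated probes down. At 1.5-fold 0 were higher at 12 and at 24 h. Genes with a higher ratio at 24 h than at 6 h by this size (2) were 5 with processed signals, plain subtraction or offset 16, 0 with no filter and 0 at 1.5-fold. Median centring turned H1f4 to 0.21, H2ac10 to 0.35, H2ac13 to 0.25, H2ac15 to 0.28, H2ax to 0.41, H2az1 to 0.41, H2bc21 to -0.46, H3c1 to -0.70, H3c14 to 0.47, H3c4 to 0.42, Mcm6 to 0.35 and Mcm7 to 0.28. Its ratios followed brightness, and for the other changes the cause was not tested. Over all genes, 2199 higher and 861 lower became 4154 and 4475 with median centring, 590 and 640 with processed signals and 403 and 143 without the 12 h array. With array weights the supply genes that passed upward were 8 in place of 4 and the S phase genes 13 in place of 8. Keeping only probes measured on all arrays, an alternative added after the data were seen, lost no call of the 17. Signal limits the 19, 17 and 16 histone probes at background in both channels at 6, 12 and 24 h and the 3, 4 and 3 that were saturated, which gave no ratio.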

Other observations

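The order of the histone genes along the chromosomes placed genes with different calls side by side, and the pairs given here were chosen after their values were seen. On chromosome 6, H4f16 on the minus strand and H2aj on the plus strand are neighbours whose starts lie 3817 bases apart. Both rose, with means of 0.39 and 0.37. On chromosome 3, H4c14 (0.31) rose beside H3c14 (-0.03), which did not pass. In the large cluster on chromosome 13 the same was seen for H4c1 (0.22) beside H3c1 (0.06), for H4c4 (0.27) beside H3c4 (-0.01), and for H4c6 (0.23) beside the linker gene H1f3 (-0.06). H3c1 was dim, at a mean signal of 6.23 on the log2 scale, so its ratio near 0 says little. H2bc12 (0.13) rose beside H4c9 (0.02), the H4 gene that did not pass. The differences within these pairs were not tested, and each value is that of a probe that may also read other copies. H2bc1 and H2ac1, the testis H2B and H2A genes of chromosome 13, are divergent neighbours with starts 281 bases apart, and H2ac1 gave no ratio to set beside H2bc1 (0.24) because it was saturated in the treated channel.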
